A study of Mus musculus with 12 samples.

Results

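The genes described here are 37 genes of cholesterol and fatty acid synthesis, chosen by symbol from the 54446 genes of the count table of a mouse RNA-seq experiment. They comprise 7 genes of the mevalonate pathway, 11 genes of the steps from squalene to cholesterol, 5 genes of the SREBP transcription factors and their regulators, 3 genes of sterol transfer and LXR response, 7 genes of fatty acid synthesis and phosphatidate metabolism and 4 fatty acid desaturases. All 37 passed the filter on low counts that left 14724 genes for testing. The experiment compared NIH3T3 cells, a fibroblast line from mouse embryos, with ΔN-VEGF cells, a derivative of the line. In the latter, CRISPR-Cas9 had removed the coding sequence of N-VEGF, an amino-terminal extension of the growth factor VEGF-A that is translated from upstream of the usual start codon of *Vegfa*. Each line was kept in normoxia or for 16 h in hypoxia below 0.2% oxygen, which gave 4 groups of 3 samples: wild type in normoxia, wild type in hypoxia, ΔN-VEGF in normoxia and ΔN-VEGF in hypoxia. The ΔN-VEGF cells came from picked single clones that went through drug selection, a VCre retrovirus and cell sorting, and no such steps are described for the wild type cells. The labels do not say which clone was sequenced, so an effect of the deletion and a property of a clone cannot be told apart.

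Cells make cholesterol from acetyl-CoA by way of mevalonate, isoprenoids, squalene and lanosterol, and several of the late steps consume molecular oxygen. Fatty acids are built from the same acetyl-CoA, and desaturases, which also need oxygen, place double bonds in them. Most of these enzymes are known targets of the SREBP transcription factors. SCAP carries the SREBPs from the endoplasmic reticulum to the Golgi for activation, and INSIG proteins hold them back when sterols are plentiful. Oxysterols also act through LXR receptors, which raise genes of cholesterol export.

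Sequencing depth was 30519052 to 43056690 counts per sample. Levels are given as CPM, the usual scaling of a gene's counts to the size of its library, here after TMM scaling of the library sizes. Wild type normoxia replicate 2 stood apart: its log2 CPM over all tested genes correlated at 0.956 and 0.957 with the other samples of its group, which correlated at 0.996 with each other. ΔN-VEGF normoxia replicate 2 stood apart to a lesser degree, at 0.986 with each of the others, which correlated at 0.996. In wild type normoxia replicate 2, 11 of the 37 genes lay more than 1.5-fold from the mean of the other 2 samples (4 above and 7 below), against at most 3 genes in any other sample. The counts over all 37 genes are therefore also given without it, and those by role or gene where named. The 6 fibroblast markers (*Col1a1*, *Col1a2*, *Vim*, *S100a4*, *Thy1* and *Fn1*) summed to 16762 to 23039 CPM in normoxia, 26868 to 29111 in wild type hypoxia and 40478 to 42576 in ΔN-VEGF hypoxia, whereas 6 adipocyte markers summed to at most 0.986 CPM and *Lep* and *Epcam* had no count in any sample. The leukocyte, epithelial and endothelial lists reached at most 6.68, 2.42 and 25.1 CPM, the last from *Cdh5* in hypoxic ΔN-VEGF cells, and the part of other cells in the results was not tested. The 8 genes known to rise in hypoxia, *Vegfa* among them, summed to 433 to 642 CPM in the normoxic samples, 5480 to 5689 in wild type hypoxia and 7564 to 7748 in ΔN-VEGF hypoxia. Both summed levels thus moved with the difference between the lines in hypoxia, and their part in the results was not tested. Single genes did not all follow: in hypoxia *S100a4* was at 61.4 to 70.6 CPM in ΔN-VEGF cells and 70.8 to 77.7 in wild type, *Thy1* at 187 to 215 and 206 to 231, and *Egln3* at 26.5 to 27.7 and 35.5 to 40.5, while *Adm* overlapped between the lines. The *Vegfa* total was 39.4 to 86.2 CPM in wild type normoxia and 34.2 to 37.3 in ΔN-VEGF normoxia, and 272 to 291 in wild type and 419 to 437 in ΔN-VEGF hypoxia. A gene total does not check the deletion, which took out only a stretch of the transcript.

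Hypoxia lowered many of these genes in both lines, more of them in the ΔN-VEGF line. A gene was called where the quasi-likelihood test of edgeR gave an adjusted p below 0.05, the adjustment (Benjamini-Hochberg) running over all 14724 genes. In wild type cells hypoxia lowered 16 of the 37 genes and raised 4, where 18.3% of all tested genes were lower and 18.2% higher. In ΔN-VEGF cells it lowered 28 and raised 4, against 26.4% and 26.9% of all genes. The share of members that fell was 43.2% for wild type and 75.7% in ΔN-VEGF cells, and the share that rose was 10.8% in both. In such bulk samples, fewer cells that express a gene and less RNA per cell cannot be told apart. With a fold of at least 2 as a further condition, 4 members were lower and 3 higher in wild type cells (6.53% and 9.17% of all genes), and 15 were lower and 4 higher in ΔN-VEGF cells (12.7% and 14.6%). Changes and differences are given on the log2 scale throughout, with the SE of the fit. The median log2 fold change of the 37 genes was −0.29 in wild type cells and −0.81 in ΔN-VEGF cells, beside −0.07 and −0.01 over all tested genes.

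**Figure D1:**
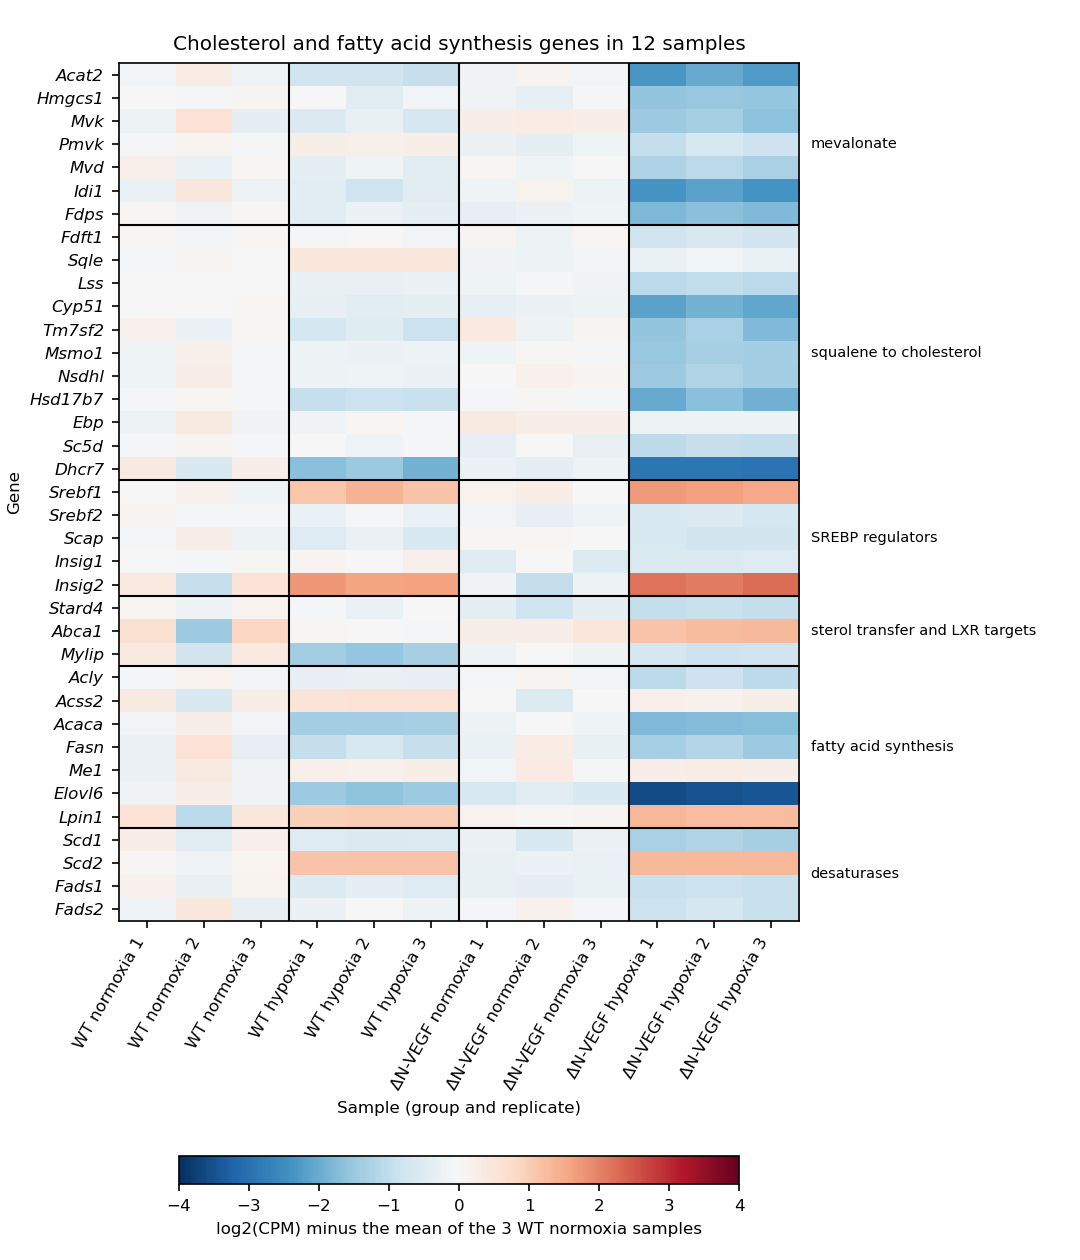
Heat map of the 37 genes (rows, in 6 groups by role) in the 12 samples (columns). Colour gives log2(CPM) minus the mean of the 3 wild type normoxia samples, blue lower and red higher. The 3 ΔN-VEGF hypoxia columns are the bluest through the mevalonate and squalene-to-cholesterol rows, apart from *Sqle* and *Ebp*, *Srebf1*, *Insig2*, *Lpin1* and *Scd2* are red in all 6 hypoxia columns, and wild type normoxia replicate 2 departs from its group in several rows.

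Between the lines, a single member, *Elovl6*, was called in normoxia, where it was lower in ΔN-VEGF cells, beside 2.97% of all genes lower and 1.39% higher. With the fold condition no member was called in normoxia in either direction (1.55% and 0.618% of all genes). No member was called higher there by edgeR or by DESeq2, and none had an unadjusted p below 0.05 in that direction. DESeq2 called 4 members lower, beside 6.76% of all genes, and 9 were lower by unadjusted p. Counts by unadjusted p have no share of all genes beside them, here and below. In hypoxia 26 members were lower in the ΔN-VEGF line than in wild type and 1 was higher, beside 9.36% and 10.8% of all genes. With the fold condition 10 were lower and none higher (3.94% and 2.87% of all genes). The unadjusted p was below 0.05 for 3 members on the higher side, and DESeq2 called 3, beside 14.1% of all genes.

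The difference between the responses, that is, the response to hypoxia in ΔN-VEGF cells minus that in wild type cells, was tested as the interaction of line and oxygen. It was negative and called in 16 of the 37 genes and called positive in none, beside 1.15% and 2.21% of all tested genes. With the fold condition 8 members were called negative and none positive, beside 0.672% and 0.89% of all genes. On the positive side 3 members had an unadjusted p below 0.05, and DESeq2 called 1, *Scd2*, beside 7.39% of all genes, and 18 negative, beside 3.32%. The estimate was negative in 30 of the 37 genes, called or not, with a median of −0.62 beside 0.03 over all genes. The 16 genes lie on 12 chromosomes, with at most 3 on any of them. The 5 comparisons share samples, so their counts are not independent of each other.

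These counts depended on the samples used. Without wild type normoxia replicate 2, 17 members were lower and 7 higher in wild type hypoxia, 28 and 6 in ΔN-VEGF hypoxia, 13 lower and 3 higher in ΔN-VEGF normoxia, 28 and 6 in ΔN-VEGF hypoxia against wild type hypoxia, and 24 negative and 5 positive in the interaction. All genes were also called more often then. Their lower and higher shares were 26.9% and 27.1% in wild type hypoxia, 34.3% and 32.8% in ΔN-VEGF hypoxia, 23.2% and 25.7% between the lines in normoxia, 21.2% in each direction between the lines in hypoxia, and 23.0% and 21.4% in the interaction. Leaving out any 1 of wild type normoxia replicates 1 and 3 or ΔN-VEGF normoxia replicates 1 and 3 left 10 negative calls in the interaction, and leaving out replicate 1 or 3 of either hypoxia group left 8, while at most 0.361% of all genes were then called negative. The 8 genes called negative in all 19 alternatives were *Acat2*, *Hmgcs1*, *Fdps*, *Cyp51*, *Msmo1*, *Nsdhl*, *Hsd17b7* and *Elovl6*. The call held in 15 of them for *Idi1* and *Lss*, 11 for *Pmvk*, 9 for *Fdft1*, *Sc5d* and *Acly*, 8 for *Mvd* and 6 for *Sqle*. In wild type hypoxia the count of lower members fell to 9 without wild type hypoxia replicate 1 or 3, beside 12.3% and 12.2% of all genes.

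Scaling by library totals in place of TMM moved the median of all genes from −0.07 to −0.30 in wild type hypoxia, from −0.01 to −0.41 in ΔN-VEGF hypoxia, from −0.01 to −0.23 between the lines in hypoxia and from 0.03 to −0.15 in the interaction. The split of all genes moved with it, to 32.7% lower and 12.8% higher in wild type and 44.5% and 15.3% in ΔN-VEGF hypoxia, to 22.2% and 4.57% between the lines in hypoxia, and to 5.13% and 0.998% in the interaction. The medians of the members were then −0.52, −1.21, −0.90 and −0.81, again below those of all genes. With totals 24 members were called lower and 3 higher in wild type hypoxia, and 21 negative and none positive in the interaction.

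**Figure D2:**
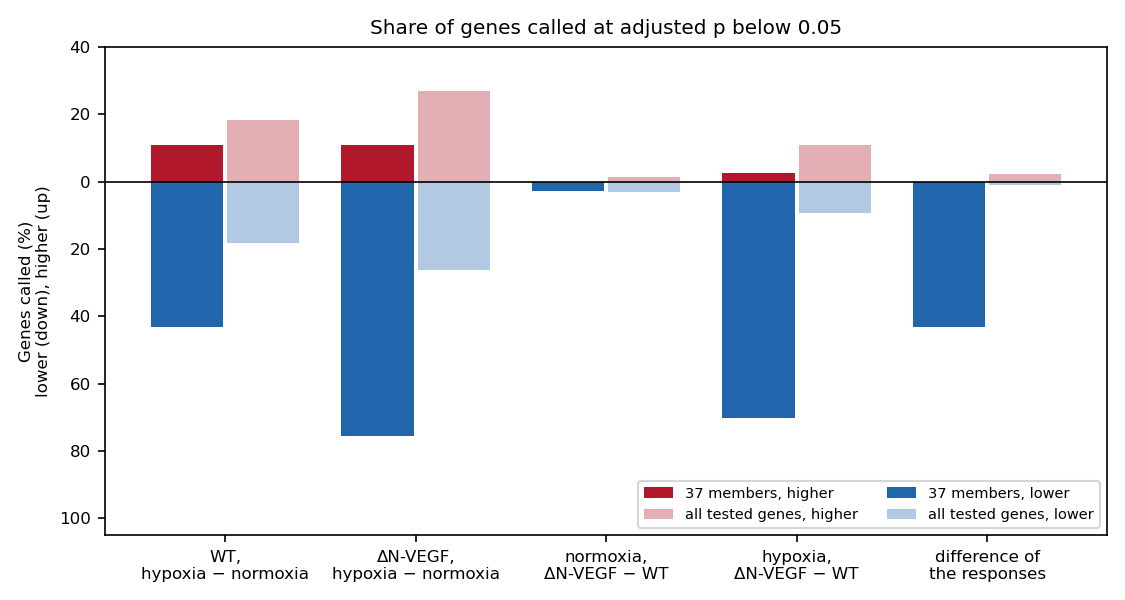
Percent of genes called at an adjusted p below 0.05 in each of the 5 comparisons, higher above the zero line and lower below it, for the 37 members (solid bars) and all 14724 tested genes (pale bars). Lower calls cover 75.7% of the members in ΔN-VEGF hypoxia and 43.2% in the difference of the responses, where the pale bars stand at 26.4% and 1.15%.

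The mevalonate genes carry acetyl-CoA to farnesyl diphosphate, from which sterols and other isoprenoids branch off. All 7 fell in hypoxic ΔN-VEGF cells and were lower there than in hypoxic wild type cells, 3 (*Acat2*, *Idi1* and *Fdps*) fell in wild type cells, and the interaction was called in 6. With library totals 6 of the 7 were called lower in wild type hypoxia, where that scaling called 32.7% of all genes lower. None was called between the lines in normoxia, where 2 had an unadjusted p below 0.05 and DESeq2 called none. When wild type normoxia replicate 2 was left out, 1 was higher and 1 lower there, beside 25.7% and 23.2% of all genes, and the interaction was called negative in 7, beside 23.0%. *Idi1*, which encodes the isomerase that makes the reactive isoprene unit (ENSMUSG00000058258, GRCm38.p6 chr13:8885501-8892451, + strand), stood at 80.3, 132 and 83.5 CPM in wild type normoxia, 71.8, 54.7 and 70.5 in wild type hypoxia, 84.4, 106 and 84.2 in ΔN-VEGF normoxia and 18.7, 22.0 and 18.5 in ΔN-VEGF hypoxia. All 3 hypoxic ΔN-VEGF samples lay far below every other sample, whereas the normoxic samples of the lines overlapped. Its log2 fold change in hypoxia was −0.59 ± 0.19 (edgeR adjusted p = 0.034) in wild type cells and −2.21 ± 0.20 (edgeR adjusted p = 6e-06) in ΔN-VEGF cells, and the interaction was −1.63 ± 0.28 (edgeR adjusted p = 0.014). Without wild type normoxia replicate 2, which had the highest level of all samples, the wild type change was −0.31 (edgeR adjusted p = 0.06) and was no longer called.

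*Acat2*, the cytosolic thiolase that opens the pathway, was at 159, 208 and 151 CPM in wild type normoxia, 97.4, 97.4 and 90.9 in wild type hypoxia, 156, 186 and 158 in ΔN-VEGF normoxia and 33.8, 42.4 and 35.2 in ΔN-VEGF hypoxia. Hypoxic samples were below normoxic ones in both lines without overlap, and lowest in ΔN-VEGF cells. On the log2 scale it changed by −0.86 ± 0.14 (edgeR adjusted p = 0.00063) in wild type cells and by −2.16 ± 0.14 (edgeR adjusted p = 5.2e-07) in ΔN-VEGF cells, with an interaction of −1.31 ± 0.20 (edgeR adjusted p = 0.0089). *Hmgcs1*, the synthase of the next step, had 221, 212 and 242 CPM in wild type normoxia, 223, 168 and 210 in wild type hypoxia, 206, 180 and 218 in ΔN-VEGF normoxia and 75.2, 79.0 and 77.6 in ΔN-VEGF hypoxia. Here wild type hypoxia overlapped wild type normoxia, and only the hypoxic ΔN-VEGF samples stood apart. The log2 fold change was −0.17 ± 0.12 (edgeR adjusted p = 0.28) in wild type cells and −1.38 ± 0.12 (edgeR adjusted p = 3.8e-06) in ΔN-VEGF cells, and the interaction −1.21 ± 0.17 (edgeR adjusted p = 0.0063).

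*Fdps*, farnesyl diphosphate synthase, had 31.7, 27.1 and 31.6 CPM in wild type normoxia, 21.8, 25.4 and 22.9 in wild type hypoxia, 24.2, 25.4 and 26.6 in ΔN-VEGF normoxia and 8.71, 9.43 and 8.89 in ΔN-VEGF hypoxia. It fell in both lines, with log2 fold changes of −0.37 ± 0.10 and −1.49 ± 0.10, with an interaction of −1.12 ± 0.14 (edgeR adjusted p = 0.0048). Of its exonic bases 26.7% overlap the predicted gene *Gm43738* on the same strand, so its level is uncertain. The kinase gene *Pmvk* was at 95.5, 105 and 94.5 CPM in wild type normoxia, 114, 113 and 115 in wild type hypoxia, 82.8, 75.7 and 86.5 in ΔN-VEGF normoxia and 51.0, 62.6 and 54.9 in ΔN-VEGF hypoxia. Wild type samples were slightly higher in hypoxia and ΔN-VEGF samples lower, without overlap, but the wild type change of 0.21 ± 0.10 was not called (edgeR adjusted p = 0.1) unless wild type normoxia replicate 2 was left out (0.27, edgeR adjusted p = 0.02). The ΔN-VEGF change was −0.54 ± 0.10 (edgeR adjusted p = 0.00071) and the interaction −0.75 ± 0.14 (edgeR adjusted p = 0.017). For the decarboxylase gene *Mvd*, the samples gave 142, 103 and 132 CPM in wild type normoxia, 94.3, 110 and 93.4 in wild type hypoxia, 129, 110 and 124 in ΔN-VEGF normoxia and 52.8, 59.2 and 50.6 in ΔN-VEGF hypoxia. Wild type samples overlapped between the conditions through replicate 2 in normoxia. The changes were −0.34 ± 0.13 (edgeR adjusted p = 0.063) and −1.16 ± 0.13 (edgeR adjusted p = 3.2e-05), and the interaction −0.82 ± 0.19 (edgeR adjusted p = 0.04). Without that sample the wild type fall was called as well (−0.46, edgeR adjusted p = 0.0016). The remaining kinase gene, *Mvk*, fell in ΔN-VEGF cells (log2 fold change −1.75 ± 0.22), and its interaction of −1.18 ± 0.30 was not called (edgeR adjusted p = 0.058), although 7 of 19 alternatives called it negative.

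**Figure D3:**
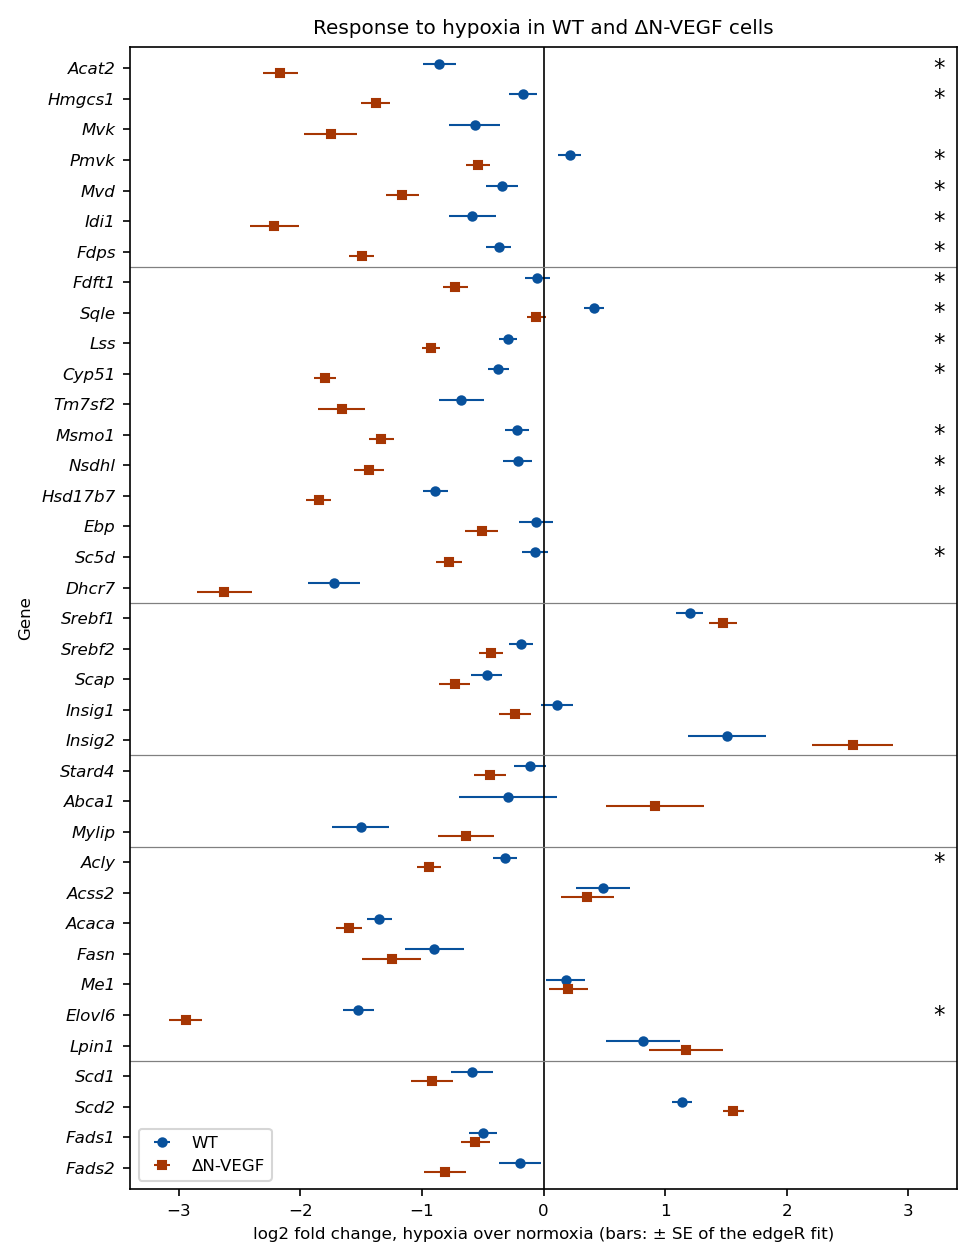
Log2 fold change of each of the 37 genes in hypoxia over normoxia in wild type (WT, circles) and ΔN-VEGF cells (squares), with the SE of the edgeR fit as bars. Asterisks mark the 16 genes whose responses differed at an adjusted p below 0.05. The square lies to the left of the circle for all 18 sterol enzymes, and the 2 symbols lie close together for *Fads1*, *Me1* and *Acss2*.

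In the steps from squalene to cholesterol the counts were similar. Of the 11 genes, 10 fell in hypoxic ΔN-VEGF cells and 10 were lower there than in hypoxic wild type cells, while 5 fell and 1 rose in wild type cells. With library totals 8 were called lower and none higher in wild type cells, beside 32.7% and 12.8% of all genes. The interaction was called negative in 8. In normoxia none was called between the lines by edgeR, 1 had an unadjusted p below 0.05, and DESeq2 called 1, and without wild type normoxia replicate 2 there were 2 higher and 2 lower, beside 25.7% and 23.2% of all genes. Over all 18 sterol enzymes the median log2 fold change in hypoxia was −0.32 in wild type cells and −1.41 in ΔN-VEGF cells, and the interaction was negative in all 18 and called in 14. Without wild type normoxia replicate 2 it was called in 18, and with DESeq2 in 16, beside 23.0% and 3.32% of all genes. Wild type hypoxia had 8 of the 18 called lower, and 14 with library totals.

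*Cyp51*, the oxygen-dependent demethylase of lanosterol, had the smallest adjusted p of the members in the interaction. The gene (ENSMUSG00000001467, GRCm38.p6 chr5:4081145-4104746, − strand) was at 214, 218 and 224 CPM in wild type normoxia, 175, 161 and 171 in wild type hypoxia, 175, 188 and 190 in ΔN-VEGF normoxia and 49.3, 58.4 and 51.5 in ΔN-VEGF hypoxia. The levels of the other 3 groups lay close together, and those of hypoxic ΔN-VEGF cells lay far below all of them. The log2 fold change was −0.37 ± 0.09 (edgeR adjusted p = 0.006) in wild type cells and −1.80 ± 0.09 (edgeR adjusted p = 6.5e-08) in ΔN-VEGF cells, and the interaction −1.42 ± 0.12 (edgeR adjusted p = 0.00058).

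*Dhcr7*, which encodes the reductase of the last step to cholesterol, fell the most of the 37 genes in wild type cells and, after *Elovl6*, in ΔN-VEGF cells. Its levels were 50.9, 26.1 and 47.9 CPM in wild type normoxia, 12.6, 14.4 and 10.9 in wild type hypoxia, 33.9, 30.6 and 34.4 in ΔN-VEGF normoxia and 5.39, 5.44 and 5.18 in ΔN-VEGF hypoxia. Hypoxic samples were below all normoxic samples in both lines, and wild type normoxia replicate 2 lay between them and the other samples of its group. The changes were −1.72 ± 0.21 (edgeR adjusted p = 0.00011) and −2.63 ± 0.23 (edgeR adjusted p = 3.7e-06), and the interaction of −0.90 ± 0.30 was not called (edgeR adjusted p = 0.12). *Hsd17b7*, a reductase that removes the keto group left by demethylation, was at 47.7, 51.7 and 48.0 CPM in wild type normoxia, 26.1, 27.1 and 26.4 in wild type hypoxia, 47.2, 51.3 and 46.6 in ΔN-VEGF normoxia and 12.1, 15.3 and 12.8 in ΔN-VEGF hypoxia. The replicates were tight, the conditions did not overlap in either line, and hypoxic ΔN-VEGF cells were lowest. It changed by −0.89 ± 0.10 (edgeR adjusted p = 5.4e-05) in wild type cells and −1.85 ± 0.10 (edgeR adjusted p = 1.6e-07) in ΔN-VEGF cells, with an interaction of −0.96 ± 0.14 (edgeR adjusted p = 0.0088).

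*Sqle*, squalene epoxidase, the first oxygen-consuming enzyme of the pathway, was the exception. It was at 264, 297 and 273 CPM in wild type normoxia, 372, 371 and 368 in wild type hypoxia, 253, 241 and 257 in ΔN-VEGF normoxia and 233, 255 and 232 in ΔN-VEGF hypoxia. Wild type samples were higher in hypoxia without overlap, and ΔN-VEGF samples overlapped between the conditions. It rose in wild type cells by 0.41 ± 0.08 (edgeR adjusted p = 0.002) while the log2 fold change in ΔN-VEGF cells was −0.06 ± 0.08 (edgeR adjusted p = 0.56), and with library totals the wild type change was 0.19 (edgeR adjusted p = 0.068) and the ΔN-VEGF change −0.46 (edgeR adjusted p = 0.00039). The interaction of −0.47 ± 0.11 (edgeR adjusted p = 0.047) was lost in 13 of the 19 alternatives, 10 of them without 1 sample each, with adjusted p up to 0.15.

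The responses of *Msmo1* and *Nsdhl*, which act after *Cyp51*, differed between the lines, and a fall was called in ΔN-VEGF cells but not in wild type cells. *Msmo1*, the methylsterol monooxygenase, was at 130, 163 and 137 CPM in wild type normoxia, 124, 122 and 124 in wild type hypoxia, 127, 147 and 137 in ΔN-VEGF normoxia and 50.3, 57.4 and 55.3 in ΔN-VEGF hypoxia. Hypoxic wild type samples were just below the normoxic ones, and hypoxic ΔN-VEGF samples were lowest by a wide gap. The changes were −0.22 ± 0.10 (edgeR adjusted p = 0.12) and −1.33 ± 0.10 (edgeR adjusted p = 1.8e-06), and the interaction −1.12 ± 0.15 (edgeR adjusted p = 0.0048). *Nsdhl*, the dehydrogenase that follows it, was at 117, 159 and 125 CPM in wild type normoxia, 115, 118 and 114 in wild type hypoxia, 133, 149 and 142 in ΔN-VEGF normoxia and 48.1, 58.2 and 50.4 in ΔN-VEGF hypoxia. Wild type samples overlapped between the conditions, and only hypoxic ΔN-VEGF samples were low. The changes were −0.21 ± 0.12 and −1.43 ± 0.12, and the interaction −1.22 ± 0.17 (edgeR adjusted p = 0.0069). The uncalled wild type changes were −0.11 for *Msmo1* and −0.07 for *Nsdhl* when wild type normoxia replicate 2 was left out.

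*Lss*, which folds squalene epoxide into lanosterol, was at 210, 205 and 208 CPM in wild type normoxia, 168, 170 and 172 in wild type hypoxia, 186, 201 and 187 in ΔN-VEGF normoxia and 97.7, 106 and 98.9 in ΔN-VEGF hypoxia. Hypoxic samples were below normoxic ones in both lines without overlap, with log2 fold changes of −0.29 ± 0.07 and −0.92 ± 0.07 and an interaction of −0.63 ± 0.10 (edgeR adjusted p = 0.013). *Fdft1*, squalene synthase, was at 196, 176 and 195 CPM in wild type normoxia, 178, 192 and 177 in wild type hypoxia, 204, 163 and 199 in ΔN-VEGF normoxia and 108, 120 and 113 in ΔN-VEGF hypoxia, with overlap between the wild type conditions and none in ΔN-VEGF cells. Its changes were −0.05 ± 0.10 and −0.73 ± 0.10 and its interaction −0.68 ± 0.14 (edgeR adjusted p = 0.033), and 18.3% of its exonic bases overlap *Ctsb* on the opposite strand, so that reads could be shared. *Sc5d*, the sterol desaturase, was at 62.7, 69.5 and 63.3 CPM in wild type normoxia, 64.1, 58.8 and 63.1 in wild type hypoxia, 51.6, 65.9 and 53.0 in ΔN-VEGF normoxia and 31.5, 34.5 and 33.2 in ΔN-VEGF hypoxia, low only in hypoxic ΔN-VEGF samples. Its changes were −0.07 ± 0.11 and −0.78 ± 0.11 and its interaction −0.71 ± 0.15 (edgeR adjusted p = 0.032). The other members of the pathway were *Tm7sf2*, a sterol reductase, which fell in both lines (−0.68 ± 0.18 and −1.66 ± 0.19), and *Ebp*, the sterol isomerase, which fell in ΔN-VEGF cells (−0.51 ± 0.14). The interaction was not called in either. Overlaps with other genes also cover 12.1% of the exonic bases of *Tm7sf2* and of *Hmgcs1* and 9.22% of those of *Idi1*.

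Promoter windows of RefSeq (assembly GRCm38.p6, 250 bases before to 50 bases after the annotated start) were at hand for 30 of the 37 genes, as 39 windows. None was searched for *Fdps*, *Fdft1*, *Sqle*, *Stard4*, *Fads1*, *Scd1* and *Scd2*. Windows on the chromosome of *Stard4* were left out, so its lack of one says nothing about RefSeq. The windows of all genes given below leave out that chromosome too. The windows were searched on both strands for CCAAT, the letters bound by NF-Y, a known partner of SREBPs, for TCACNCCAC, a form of the sterol response element, and for CACGTG, the E-box. CCAAT was found in 61.5% of the member windows and 37.4% of the 32851 windows of all genes. It was present in a window of all 9 squalene-to-cholesterol genes that had one and of 5 of the 6 mevalonate genes. It was also present for 4 of the 5 SREBP regulators, among them *Insig2* and *Srebf1*, which rose in both lines. Of the fatty acid synthesis genes 4 of 7 had it, of the sterol transfer and LXR genes 1 of 2, and the 1 desaturase searched did not. The sterol element was found in 1 member window, that of *Hmgcs1*, and in 1.24% of all windows, and the E-box in 17.9% and 7.15%. These are matches of letters, not sites shown to be bound. The stretches of the 9 genes that hold the match nearest upstream of the start are shown because these genes fell together in ΔN-VEGF hypoxia, and that of *Hmgcs1* because it alone held the sterol element. They are written 5′ to 3′ on the strand of the gene with the match in capitals (ATTGG is CCAAT on the other strand).
Cyp51 (chr5:4104712-4104736, - strand): ctgtccgccaCCAATctggtcctga
Dhcr7 (chr7:143830155-143830179, + strand): tccacttccgATTGGtcgtctgtga
Ebp (chrX:8193553-8193577, - strand): ccctgtactgATTGGttcgtcagat
Hsd17b7 (chr1:169969206-169969227, - strand): ccgagccttgATTGGtcgaggt
Lss (chr10:76531533-76531557, + strand): tgatgctctgATTGGccgagctcgc
Msmo1 (chr8:64733619-64733643, - strand): gtggggcggaCCAATtacgacaggc
Nsdhl (chrX:72918491-72918515, + strand): gactagcctcATTGGgcaaaatcat
Sc5d (chr9:42264310-42264334, - strand): ccggctgctgATTGGccggctgcct
Tm7sf2 (chr19:6067883-6067907, - strand): cccagcgctgATTGGctactgtgct
Hmgcs1 (chr13:119690204-119690232, + strand): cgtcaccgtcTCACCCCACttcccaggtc

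The genes that control SREBP activity did not move as one. *Srebf1* and *Insig2* rose in both lines, *Scap* fell in both, *Srebf2* was called lower in ΔN-VEGF cells and not in wild type, and *Insig1* was not called in either. No interaction was called among the 5, by edgeR or DESeq2, and 1, *Insig2*, had an unadjusted p below 0.05. Leaving out wild type normoxia replicate 2 gave 1 positive and 1 negative call, beside 21.4% and 23.0% of all genes. *Insig2*, one of the proteins that hold SCAP and its cargo in the endoplasmic reticulum, was at 19.0, 7.57 and 21.1 CPM in wild type normoxia, 48.5, 43.4 and 44.2 in wild type hypoxia, 13.2, 7.51 and 12.7 in ΔN-VEGF normoxia and 65.9, 60.8 and 67.9 in ΔN-VEGF hypoxia. All hypoxic samples were above all normoxic samples, highest in ΔN-VEGF cells, and both normoxia samples numbered 2 were the lowest of their groups. The log2 fold change was 1.51 ± 0.32 (edgeR adjusted p = 0.0036) in wild type cells and 2.54 ± 0.33 (edgeR adjusted p = 8.1e-05) in ΔN-VEGF cells, the former 1.18 without wild type normoxia replicate 2. The interaction was 1.03 ± 0.44 (edgeR adjusted p = 0.22), and it was called without that sample.

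*Insig1*, the other INSIG and itself a known SREBP target, was at 127, 123 and 133 CPM in wild type normoxia, 138, 130 and 146 in wild type hypoxia, 91.5, 128 and 87.8 in ΔN-VEGF normoxia and 85.6, 85.7 and 89.4 in ΔN-VEGF hypoxia. The conditions overlapped in both lines, and the hypoxic ΔN-VEGF samples were all below the hypoxic wild type samples. The changes were 0.11 ± 0.13 (edgeR adjusted p = 0.54) and −0.24 ± 0.13 (edgeR adjusted p = 0.15), and the difference between the lines in hypoxia was −0.67 ± 0.13 (edgeR adjusted p = 0.0058). *Srebf1*, which encodes the SREBP that acts mainly on fatty acid genes, was at 76.4, 85.2 and 68.2 CPM in wild type normoxia, 166, 195 and 168 in wild type hypoxia, 83.3, 91.0 and 77.5 in ΔN-VEGF normoxia and 248, 236 and 217 in ΔN-VEGF hypoxia. Hypoxic samples were above normoxic ones in both lines without overlap. It rose by 1.20 ± 0.11 (edgeR adjusted p = 1.4e-05) in wild type cells and 1.48 ± 0.11 (edgeR adjusted p = 1.6e-06) in ΔN-VEGF cells. In hypoxia the ΔN-VEGF level exceeded that of wild type by 0.41 ± 0.11 (edgeR adjusted p = 0.026), a call lost in 7 of 20 alternatives, among them library totals with 0.19 (edgeR adjusted p = 0.14).

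*Srebf2*, which encodes the SREBP that acts mainly on sterol genes, was at 596, 539 and 540 CPM in wild type normoxia, 460, 543 and 465 in wild type hypoxia, 522, 442 and 497 in ΔN-VEGF normoxia and 369, 371 and 341 in ΔN-VEGF hypoxia. Wild type samples overlapped between the conditions, and hypoxic ΔN-VEGF samples were the lowest of all. The changes were −0.19 ± 0.10 (edgeR adjusted p = 0.16) and −0.43 ± 0.10 (edgeR adjusted p = 0.0035), the lines differed in hypoxia by −0.44 ± 0.10 (edgeR adjusted p = 0.011), and the interaction was −0.24 ± 0.14 (edgeR adjusted p = 0.35). *Scap*, the escort of the SREBPs, fell, with log2 fold changes of −0.47 ± 0.13 in wild type cells and −0.73 ± 0.13 in ΔN-VEGF cells, and 13.2% of its exonic bases overlap a gene on the opposite strand.

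**Figure D4:**
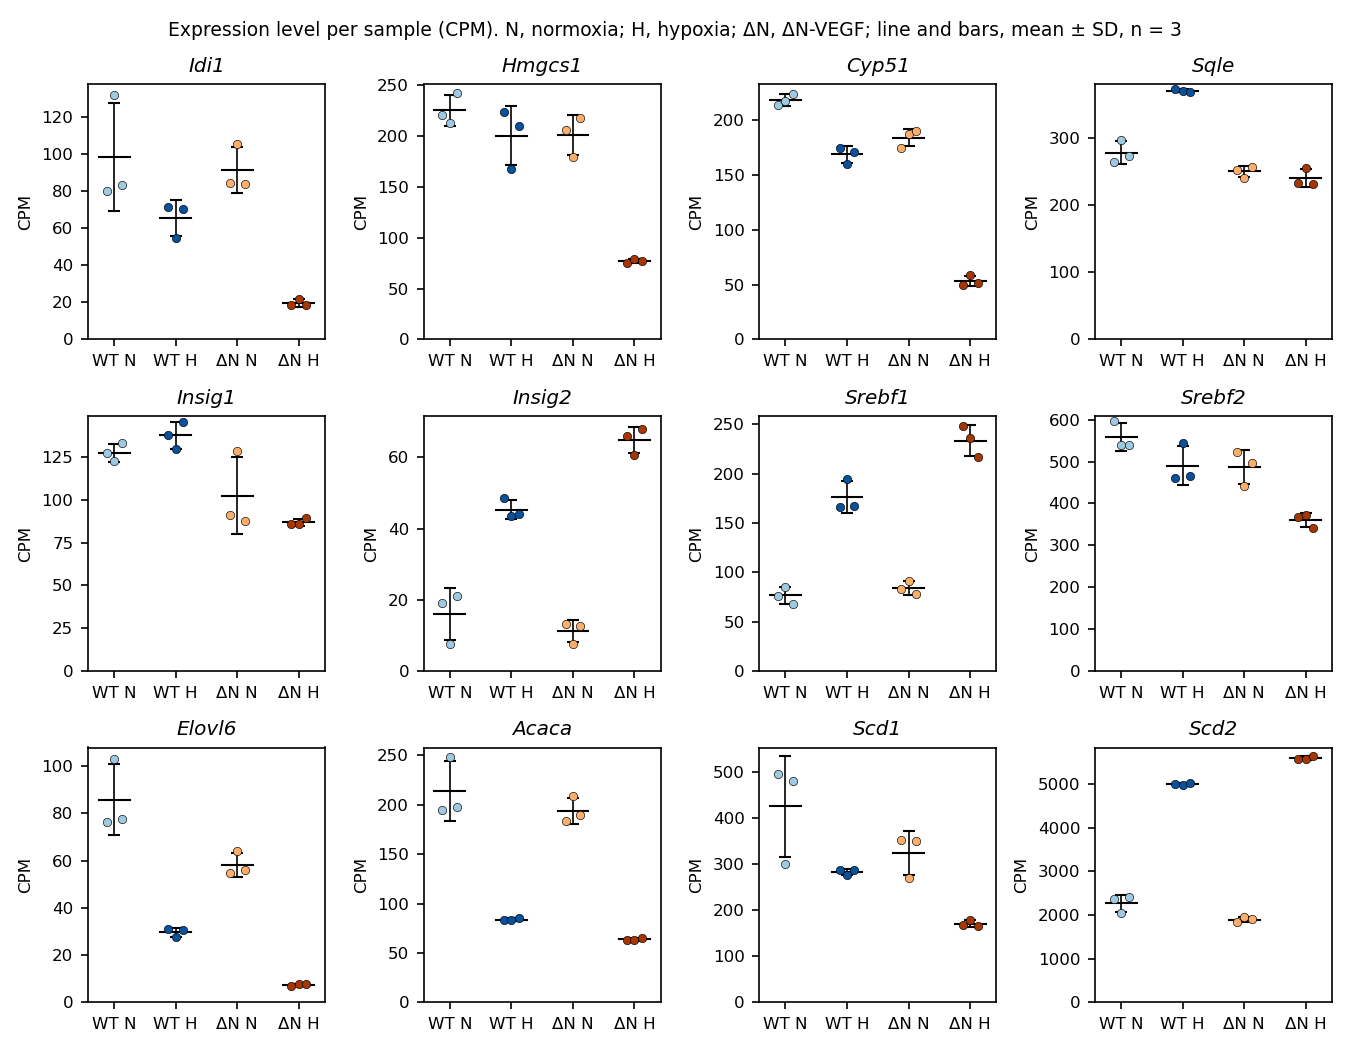
CPM of 12 genes in each sample (points), with the mean and SD of the 3 samples of a group (line and bars) and axes that start at 0. The hypoxic ΔN-VEGF points (ΔN H) are the lowest for *Idi1*, *Hmgcs1*, *Cyp51*, *Srebf2*, *Elovl6*, *Acaca* and *Scd1* and the highest for *Insig2*, *Srebf1* and *Scd2*, and *Sqle* is highest in hypoxic wild type cells (WT H).

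Of the 3 genes of sterol transfer and LXR response, *Mylip*, a ubiquitin ligase known to direct lipoprotein receptors to degradation, was at 53.1, 24.8 and 52.4 CPM in wild type normoxia, 15.6, 14.2 and 16.2 in wild type hypoxia, 35.9, 41.5 and 35.3 in ΔN-VEGF normoxia and 25.4, 23.1 and 23.8 in ΔN-VEGF hypoxia. Hypoxic samples were below normoxic ones in both lines without overlap, and here the hypoxic wild type samples were the lowest. It fell, with log2 fold changes of −1.50 ± 0.23 (edgeR adjusted p = 0.00052) in wild type cells and −0.64 ± 0.23 (edgeR adjusted p = 0.036) in ΔN-VEGF cells, and the interaction of 0.86 ± 0.33 (edgeR adjusted p = 0.16) was not called with all samples. The fall in ΔN-VEGF cells was called in 13 of 20 alternatives, with edgeR and DESeq2 adjusted p of up to 0.097. *Stard4*, a carrier of cholesterol between membranes, was at 103, 85.8 and 108 CPM in wild type normoxia, 95.4, 82.1 and 96.3 in wild type hypoxia, 76.1, 56.8 and 76.9 in ΔN-VEGF normoxia and 50.8, 52.9 and 51.1 in ΔN-VEGF hypoxia. The wild type conditions overlapped, and every ΔN-VEGF sample was below every wild type sample. The changes in hypoxia were −0.11 ± 0.13 (edgeR adjusted p = 0.53) and −0.44 ± 0.13 (edgeR adjusted p = 0.016), and the lines differed by −0.82 ± 0.13 (edgeR adjusted p = 0.002) in hypoxia and −0.50 ± 0.13 (edgeR adjusted p = 0.059) in normoxia. The normoxia difference of *Stard4* was called in 4 of 21 alternatives, DESeq2 among them. *Abca1*, the cholesterol exporter raised by LXR, was the least abundant member per kilobase of exon, at 4.95, 1.18 and 5.78 CPM in wild type normoxia, 3.37, 3.22 and 3.16 in wild type hypoxia, 3.83, 3.93 and 4.41 in ΔN-VEGF normoxia and 7.17, 7.75 and 8.03 in ΔN-VEGF hypoxia. Wild type normoxia replicate 2 was the lowest sample of all, and hypoxic ΔN-VEGF samples were the highest. No comparison was called for it by edgeR with all samples, whereas DESeq2 called it higher in hypoxic than in normoxic ΔN-VEGF cells (adjusted p = 0.045) and, within hypoxia, higher in the ΔN-VEGF line (adjusted p = 0.015). With edgeR and that lowest sample left out, it fell in wild type hypoxia (−0.72, edgeR adjusted p = 0.0003) and rose in ΔN-VEGF hypoxia (0.91, edgeR adjusted p = 7.4e-06).

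Among the 7 genes of fatty acid synthesis, *Acly*, *Acaca*, *Fasn* and *Elovl6* fell in both lines, *Lpin1* rose in ΔN-VEGF cells, and *Acss2* and *Me1* were not called in either. Without wild type normoxia replicate 2, *Me1* was called higher in wild type hypoxia (0.40, edgeR adjusted p = 0.0099) and *Acss2* in ΔN-VEGF hypoxia (0.35, edgeR adjusted p = 0.019), and the interaction was called negative in 4 of the 7 genes and positive in 1, beside 23.0% and 21.4% of all genes. With all samples the counts were 2 and none, also by unadjusted p and by DESeq2. *Elovl6*, the elongase of long saturated chains, had the largest fall of all members in ΔN-VEGF cells. The gene (ENSMUSG00000041220, GRCm38.p6 chr3:129532355-129638495, + strand) was at 76.4, 103 and 77.8 CPM in wild type normoxia, 30.9, 27.6 and 30.9 in wild type hypoxia, 54.8, 64.1 and 56.1 in ΔN-VEGF normoxia and 7.14, 7.62 and 7.94 in ΔN-VEGF hypoxia. The 4 groups did not overlap: wild type normoxia was highest, then ΔN-VEGF normoxia, wild type hypoxia and ΔN-VEGF hypoxia. The changes were −1.53 ± 0.13 (edgeR adjusted p = 5.8e-06) in wild type cells and −2.94 ± 0.14 (edgeR adjusted p = 4.3e-08) in ΔN-VEGF cells, with an interaction of −1.42 ± 0.18 (edgeR adjusted p = 0.0048). In normoxia it was lower in ΔN-VEGF cells, with a log2 difference of −0.56 ± 0.12 (edgeR adjusted p = 0.032), and the edgeR adjusted p was 0.17 when the 6 normoxia samples alone were fitted with the replicate number as a block. This call was lost in 12 of 21 alternatives, among them without ΔN-VEGF normoxia replicate 1, with an edgeR adjusted p of 0.15.

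*Acaca*, acetyl-CoA carboxylase, the committed step of fatty acid synthesis, was at 195, 248 and 197 CPM in wild type normoxia, 83.0, 82.9 and 85.2 in wild type hypoxia, 183, 209 and 189 in ΔN-VEGF normoxia and 62.6, 63.1 and 65.5 in ΔN-VEGF hypoxia. The hypoxic samples of both lines were tight and far below the normoxic ones. It fell, with log2 fold changes of −1.35 ± 0.10 (edgeR adjusted p = 3.3e-06) and −1.60 ± 0.11 (edgeR adjusted p = 5e-07), and the interaction of −0.25 ± 0.15 was not called (edgeR adjusted p = 0.35). *Acly*, ATP citrate lyase, which feeds both pathways with acetyl-CoA, was at 883, 1006 and 844 CPM in wild type normoxia, 730, 741 and 722 in wild type hypoxia, 854, 970 and 849 in ΔN-VEGF normoxia and 443, 510 and 437 in ΔN-VEGF hypoxia. The conditions did not overlap in either line. It fell, with log2 fold changes of −0.32 ± 0.10 (edgeR adjusted p = 0.027) and −0.94 ± 0.10 (edgeR adjusted p = 1.8e-05), with an interaction of −0.63 ± 0.14 (edgeR adjusted p = 0.039) that was called in 9 of the 19 alternatives. *Fasn*, fatty acid synthase, fell, with log2 fold changes of −0.90 ± 0.24 and −1.25 ± 0.24, and both normoxia samples numbered 2 were its highest, at 1437 and 1194 CPM. The wild type change was −0.54 (edgeR adjusted p = 0.012) without the first of these. *Lpin1*, a phosphatidate phosphatase, rose by 1.17 ± 0.31 (edgeR adjusted p = 0.0077) in ΔN-VEGF cells and by 0.77 (edgeR adjusted p = 0.074) with library totals. In wild type cells its change was 0.82 ± 0.30 (edgeR adjusted p = 0.055), with replicate 2 in normoxia at 26.3 CPM and the other samples at 81.6 and 75.3, and without that sample it was smaller but called (0.46, edgeR adjusted p = 9.4e-05).

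The desaturases split. *Scd2*, the most abundant of the 37 genes per kilobase of exon, rose in both lines, while *Scd1* and *Fads1* fell in both and *Fads2* fell in ΔN-VEGF cells. *Scd2*, a stearoyl-CoA desaturase, was at 2359, 2048 and 2405 CPM in wild type normoxia, 5002, 4985 and 5021 in wild type hypoxia, 1841, 1944 and 1898 in ΔN-VEGF normoxia and 5562, 5564 and 5644 in ΔN-VEGF hypoxia. Every hypoxic sample was more than 2-fold above every normoxic one, and the replicates in hypoxia were nearly equal. It rose by 1.14 ± 0.08 (edgeR adjusted p = 2e-06) and 1.56 ± 0.08 (edgeR adjusted p = 1.1e-07), and the interaction was 0.42 ± 0.12 (edgeR adjusted p = 0.072). *Scd1*, its paralog, which places the same double bond, was at 497, 300 and 481 CPM in wild type normoxia, 289, 277 and 287 in wild type hypoxia, 352, 270 and 351 in ΔN-VEGF normoxia and 168, 180 and 167 in ΔN-VEGF hypoxia. Hypoxic ΔN-VEGF samples were the lowest, and wild type normoxia replicate 2 lay close to the hypoxic wild type samples. It fell, with log2 fold changes of −0.59 ± 0.17 (edgeR adjusted p = 0.021) and −0.92 ± 0.17 (edgeR adjusted p = 0.001), and the lines differed in hypoxia by −0.73 ± 0.17 (edgeR adjusted p = 0.014). *Fads2*, which makes the first double bond of polyunsaturated chains, was at 201, 303 and 177 CPM in wild type normoxia, 188, 217 and 192 in wild type hypoxia, 208, 248 and 209 in ΔN-VEGF normoxia and 122, 136 and 120 in ΔN-VEGF hypoxia. The wild type conditions overlapped and the ΔN-VEGF ones did not. Its changes were −0.19 ± 0.17 (edgeR adjusted p = 0.42) and −0.81 ± 0.18 (edgeR adjusted p = 0.0026), the lines differed in hypoxia by −0.65 ± 0.18 (edgeR adjusted p = 0.024), and the interaction of −0.62 ± 0.25 (edgeR adjusted p = 0.18) was not called with all samples. It was called negative in 3 of 19 alternatives, among them the one without wild type normoxia replicate 2, where the wild type change was 0.08 in place of −0.19 ± 0.17. *Fads1*, which acts after it, fell, with log2 fold changes of −0.50 ± 0.12 and −0.56 ± 0.12, with an interaction of −0.06 ± 0.16 (edgeR adjusted p = 0.86).

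Of the members, 8 encode enzymes that consume molecular oxygen: *Sqle*, *Cyp51*, *Msmo1*, *Sc5d* and the 4 desaturases. In wild type hypoxia 2 of them rose and 3 fell, in ΔN-VEGF hypoxia 1 rose and 6 fell, and the interaction was called negative in 4. Over all genes 18.2% rose and 18.3% fell in wild type hypoxia and 26.9% and 26.4% in ΔN-VEGF hypoxia, and counts among 8 genes are coarse beside these shares. With library totals 1 was called higher and 6 lower in wild type hypoxia, beside 12.8% and 32.7% of all genes, and 1 and 7 in ΔN-VEGF hypoxia. Of the 14 sterol enzymes that use no oxygen, 7 fell in wild type cells, 14 in ΔN-VEGF cells, and the interaction was called negative in 10. The median log2 fold changes of the 14 were −0.36 and −1.46, those of the 8 oxygen users −0.21 and −0.80. The 4 oxygen users with a negative interaction call were the sterol enzymes *Sqle*, *Cyp51*, *Msmo1* and *Sc5d*, and 0 of the 4 desaturases had one. The 8 and the 14 thus differ in pathway as well as in oxygen use, and the part of either was not tested.

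Levels were also compared per kilobase of exon (CPM per kb), the only scale on which genes are set beside each other here. In wild type normoxia the order began with *Scd2* at 416 ± 35.6 (SD, n = 3), *Acly* at 173 ± 16.1, *Fads1* at 97.7 ± 16.5, *Fasn* at 91.7 ± 34.3 and *Scd1* at 87.1 ± 22.3. The last 3 lay within their spread of each other. The lowest were *Tm7sf2* at 3.63 ± 0.52, *Acss2* at 3.08 ± 0.99 and *Abca1* at 0.383 ± 0.236, the first 2 of them within their spread. In hypoxic ΔN-VEGF cells *Scd2* reached 1023 ± 8.57 and *Acly*, again in the next place, 87.7 ± 7.68. At the lower end *Tm7sf2*, *Elovl6* and *Dhcr7* were at 1.24 ± 0.21, 1.18 ± 0.06 and 0.917 ± 0.023, above only *Abca1* at 0.739 ± 0.042. *Tm7sf2* and *Elovl6* lay within their spread of each other.

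Other genes of these pathways served for comparison. Of 46 listed, 41 passed the filter, with *Vldlr*, *Abcg1*, *Nr1h3*, *Ch25h* and *Cyp27a1* below it. In wild type hypoxia 14 of the 41 fell and 9 rose (median log2 fold change −0.21), and in ΔN-VEGF hypoxia 17 fell and 12 rose (median −0.18). The shares of all genes were 18.3% and 18.2% in wild type and 26.4% and 26.9% in ΔN-VEGF hypoxia. The interaction was called positive in 3 by edgeR (9 by unadjusted p, 9 by DESeq2) and negative in none (5 by unadjusted p, 1 by DESeq2), where edgeR called 2.21% of all genes positive and 1.15% negative and DESeq2 7.39% and 3.32%. Without wild type normoxia replicate 2 it was called positive in 11 and negative in 9, and between the lines in normoxia the counts went from 1 higher and 3 lower to 11 and 8. Of all genes tested without that sample, 21.4% and 23.0% were called positive and negative for the interaction, and 25.7% and 23.2% higher and lower between the lines in normoxia. Of the 3, *Dgat2*, which makes triacylglycerol, was at 7.05, 4.78 and 7.28 CPM in wild type normoxia, 27.4, 30.3 and 29.6 in wild type hypoxia, 6.72, 5.92 and 6.20 in ΔN-VEGF normoxia and 70.8, 71.3 and 71.3 in ΔN-VEGF hypoxia. It rose in both lines without overlap and reached its highest level in ΔN-VEGF cells, with changes of 2.19 ± 0.15 (edgeR adjusted p = 1.1e-06) and 3.50 ± 0.15 (edgeR adjusted p = 2.8e-08) and an interaction of 1.31 ± 0.20 (edgeR adjusted p = 0.0089). *Soat1*, which esterifies cholesterol for storage, rose from 31.9, 50.7 and 32.8 CPM to 159, 153 and 157 in wild type and from 41.6, 56.1 and 43.3 to 250, 257 and 261 in ΔN-VEGF cells, by 2.02 ± 0.18 and 2.45 ± 0.18 on the log2 scale. *Npc2*, which takes cholesterol out of lysosomes, was higher in hypoxic ΔN-VEGF than in hypoxic wild type cells, 687, 725 and 696 against 330, 357 and 321 CPM (1.06 ± 0.13, edgeR adjusted p = 0.00059). The interaction was also called in 2 phosphatidate phosphatase genes related to *Lpin1*, *Lpin3* (0.93 ± 0.22, edgeR adjusted p = 0.047) and *Lpin2* (0.65 ± 0.10, edgeR adjusted p = 0.011). *Lpin3* was at 27.0, 20.6 and 24.9 CPM in wild type normoxia and 10.6, 15.5 and 10.4 in ΔN-VEGF normoxia, and was lower in the latter, with a log2 difference of −0.99 ± 0.16 (edgeR adjusted p = 0.0077). *Agpat2*, which makes phosphatidate, was higher in ΔN-VEGF normoxia, at 3.53, 3.15 and 3.65 against 0.936, 1.23 and 0.944 CPM (1.73 ± 0.26, edgeR adjusted p = 0.005). *Acacb*, the mitochondrial carboxylase, was lower there, at 1.57, 1.14 and 1.76 against 5.39, 1.74 and 5.05 CPM (−1.44 ± 0.36, edgeR adjusted p = 0.049), but the samples overlapped. *Hsd17b12*, a reductase of chain elongation, was lower in hypoxic ΔN-VEGF than in hypoxic wild type cells, with a log2 difference of −0.77 ± 0.21 (edgeR adjusted p = 0.025). *Cpt1a*, which brings fatty acids into mitochondria for oxidation, fell, with log2 fold changes of −1.77 ± 0.35 in wild type cells and −1.08 ± 0.35 in ΔN-VEGF cells. Wild type normoxia replicate 2, at 93.6 CPM, was far below the other samples of its group at 315 and 296.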

How the data were processed

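RNA was sequenced from 12 samples, 3 in each of 4 groups that were taken from the labels. Per the labels and the study's methods, the authors trimmed single reads with Trim Galore and cutadapt 1.10, aligned them with TopHat2 2.1.0 and Bowtie2 2.2.6 to GRCm38.p6 and counted them per gene with HTSeq 0.6.1. The deposited values are raw counts per gene. The strand setting of the counting is not given in the sources used here, so exons that overlap another gene can hold its reads. The study's methods state, as a general rule, at least 3 repeats of each experiment, every one in triplicate, but not which kind of repeat the sequenced samples are, so p-values measure the spread between these samples, which may be technical. Even the most similar replicates (chi-square of 2.86 per gene) differed beyond sampling noise, and each sample was counted once.

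In R 4.3.3, edgeR 4.0.16 was used to fit the counts (filterByExpr, TMM scaling, quasi-likelihood F test, 1 mean per group, all 12 samples), with Benjamini-Hochberg adjustment over 14724 genes and a call at an adjusted p below 0.05. An SE is the log2 fold change divided by the square root of F. Simulated data served as a test of the code. With 3 samples against 3, an exact permutation test of a single gene cannot go below 0.10. Alternatives were DESeq2 1.42.0, other scalings and filters, the fit of 6 samples, each sample left out in turn, both normoxia samples numbered 2 left out, and the replicate number as a block. Same-numbered samples of the normoxia groups deviated together from their group means (correlations of 0.378, 0.498 and 0.355 over genes). Deviations from a mean of 3 samples are not independent, so a shared departure of the samples numbered 2 can alone give this. Samples of unlike number were not compared, so whether the numbers pair the samples was not settled. In the other comparisons some pairs were below 0.1. Genes given in full were those called in the interaction, the 2 with the largest called change without overlap per role and comparison, and *Insig1*, *Insig2*, *Srebf1* and *Srebf2*. The members, lists and tests were chosen with earlier results of these data known.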

Additional observations from a re-analysis of the deposited data

Results flagged for a closer look

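The responses of 16 members and 3 other genes of the pathways to hypoxia differed between the lines by the test of the interaction of line and oxygen. The log2 differences, ΔN-VEGF response minus wild type response, were for the mevalonate genes −1.31 (*Acat2*), −1.21 (*Hmgcs1*), −0.75 (*Pmvk*), −0.82 (*Mvd*), −1.63 (*Idi1*) and −1.12 (*Fdps*). For the steps from squalene to cholesterol they were −0.68 (*Fdft1*), −0.47 (*Sqle*), −0.63 (*Lss*), −1.42 (*Cyp51*), −1.12 (*Msmo1*), −1.22 (*Nsdhl*), −0.96 (*Hsd17b7*) and −0.71 (*Sc5d*), and for the fatty acid genes −0.63 (*Acly*) and −1.42 (*Elovl6*). The positive ones were 1.31 (*Dgat2*), 0.65 (*Lpin2*) and 0.93 (*Lpin3*). With library totals 21 members and with DESeq2 18 were called negative, beside 5.13% and 3.32% of all genes. The deletion and the clone cannot be told apart in these differences.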

How the results depend on the processing

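Counts of members are given here as lower or higher calls. With both normoxia samples numbered 2 left out, higher calls were 8 in wild type hypoxia, 7 in ΔN-VEGF hypoxia, 3 between the lines in normoxia, 6 in hypoxia and 5 in the interaction, and lower calls were 16 in normoxia and 27 in the interaction. All genes were then called more often too, 25.8% to 35.4% higher and 25.8% to 36.0% lower over the 5 comparisons. With a fold of at least 2, lower calls were 4, 15, 0, 10 and 8 in these 5 comparisons, and higher calls between the lines in hypoxia were 0. DESeq2 called 4 lower in normoxia, 3 higher in hypoxia and 1 higher in the interaction. With only the 6 samples compared, 9 were lower in wild type hypoxia, 0 lower in normoxia and 6 higher between the lines in hypoxia. The shares of all genes in the fits of 6 samples are not given here, so these counts cannot be set against a background. Without a filter 0 were lower in normoxia, and with library totals 0 were higher in hypoxia. With the replicate block 2 were lower in normoxia, beside 2.82% of all genes, and 0 with the block and only those 6 samples, an alternative chosen after seeing the data. In the other comparisons the block gave 17 lower and 5 higher in wild type hypoxia, 28 and 4 in ΔN-VEGF hypoxia, 27 and 1 between the lines in hypoxia, and 15 and 0 in the interaction. The shares of all genes were then 18.9% and 19.7%, 27.5% and 28.0%, 10.4% and 11.6%, and 1.13% and 2.15%. With 1 sample left out at a time, lower calls ranged from 9 to 17 in wild type hypoxia, 26 to 28 in ΔN-VEGF hypoxia, 0 to 13 in normoxia, 20 to 28 between the lines in hypoxia and 8 to 24 in the interaction. Higher calls ranged from 4 to 7, 4 to 6, 0 to 3, 0 to 6 and 0 to 5. The lower shares of all genes then ran from 12.2% to 26.9%, 20.4% to 34.3%, 0.726% to 23.2%, 4.49% to 21.2% and 0.151% to 23.0%. Their higher shares ran from 14.6% to 27.1%, 22.5% to 32.8%, 0.376% to 25.7%, 5.44% to 21.2% and 0.342% to 21.4%. The highest of the ranges that begin at 0 came without wild type normoxia replicate 2. The single lower call in normoxia was lost without wild type normoxia replicate 3, ΔN-VEGF normoxia replicate 1 or 3, or any 1 hypoxia sample. The single higher call between the lines in hypoxia was lost without wild type hypoxia replicate 1 or 3 or any 1 ΔN-VEGF hypoxia sample, and 2 were called without wild type normoxia replicate 3. *Abca1* in normoxia, 0.03 on the log2 scale, was −0.39 without wild type normoxia replicate 2, −0.38 without both samples numbered 2, and up to 0.40 without wild type normoxia replicate 3. Calls present in all alternatives were 7 of 16 lower and 3 of 4 higher in wild type hypoxia, 26 of 28 and 3 of 4 in ΔN-VEGF hypoxia, 20 of 26 and 0 of 1 between the lines in hypoxia, and 8 of 16 in the interaction. The cause was not tested for any of these.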
